A study of Mus musculus with 4 samples.

Results

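The Ly6 genes Ly6a, Ly6c1, Ly6c2 and Ly6e were examined in C2C12 myoblasts treated with interferon-gamma (IFN-γ). Ly6a encodes stem cell antigen 1 (Sca-1). The 4 genes were chosen from earlier results of these same arrays, so their own changes are given below as a description, with no test. Every probe whose transcript accession belonged to one of them was kept. This gave 4 probes for 3 of the 4 genes, out of 39429 probes for 19751 genes on the array. Ly6a and Ly6e had 1 probe each, Ly6c1 had 2, and no probe was matched to Ly6c2, which is therefore not analysed here. The arrays measure RNA, so the levels of the proteins at the cell surface were not measured.

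C2C12 is an established mouse myoblast line that fuses into myotubes when serum is lowered. The treated cells received IFN-γ at 1 ng/ml during 3 days of myogenic differentiation, and the control cells went through the same 3 days without the cytokine. RNA of treated cells was labelled with Cy5 and RNA of control cells with Cy3 on each of 4 arrays that carry 2 colours. All groups are 1 cell line, the labels do not say whether the controls came from separate cultures, and the spread between arrays may thus be partly technical. No array had its dyes swapped, so dye and treatment cannot be told apart, and the labels give the horse serum as 2% in one field and 10% in another. Median spot intensities lay between 149.5 and 264 in Cy5 and between 79.8 and 97 in Cy3.

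Ly6 proteins are small, cysteine-rich proteins with a 3-finger fold, and most are held at the outer face of the plasma membrane by a glycosylphosphatidylinositol (GPI) anchor. In mice many of their genes lie side by side on chromosome 15. Sca-1 marks haematopoietic stem cells and, in skeletal muscle, mesenchymal progenitors. Ly6C, the product of Ly6c1 and its close copy Ly6c2, marks inflammatory monocytes and is also carried by endothelial cells and lymphocytes. Ly6e is expressed in many tissues and restricts the entry of coronaviruses. IFN-γ acts through a receptor that activates JAK kinases, and Ly6a, Ly6c1 and Ly6e are known interferon-inducible genes.

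Ly6c1 and Ly6c2 are such near copies that their upstream regions could be compared directly. The 250 bases upstream of the first listed start site of each are shown because only 1 of the pair had a probe. Both are from RefSeq on GRCm38.p6, minus strand, written 5′ to 3′. The Ly6c1 window is chr15:75048838-75049087 and the Ly6c2 window is chr15:75111972-75112221. Capitals mark the letters CANNTG, called an E-box, and the letters TATAAA, called a TATA match, on either strand.
Ly6c1: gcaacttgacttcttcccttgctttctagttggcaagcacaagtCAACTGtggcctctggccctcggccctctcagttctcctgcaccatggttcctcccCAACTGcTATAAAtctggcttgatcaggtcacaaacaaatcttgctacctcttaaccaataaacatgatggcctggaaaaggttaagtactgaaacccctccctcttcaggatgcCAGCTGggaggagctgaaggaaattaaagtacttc
Ly6c2: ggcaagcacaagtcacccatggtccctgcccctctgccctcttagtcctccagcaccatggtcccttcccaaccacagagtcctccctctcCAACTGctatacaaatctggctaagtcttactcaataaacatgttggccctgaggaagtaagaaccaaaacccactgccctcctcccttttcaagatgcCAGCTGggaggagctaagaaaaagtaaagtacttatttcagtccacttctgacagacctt

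The windows aligned over 210 bases, of which 171 were identical (81.4%), and the longest identical run was 20 bases. The Ly6c1 window held 3 E-boxes and 1 TATA match, and the Ly6c2 window held 2 E-boxes and 0 TATA matches. The window of the second listed Ly6c1 start site held 2 E-boxes and 0 TATA matches, as did both Ly6c2 windows. E-boxes, the letters bound by myogenic factors among others, were present in 66.2% and TATAAA in 12.4% of 32851 promoter windows of the same length. The letters AANNGAAA, the core bound by interferon regulatory factors, were found in neither window and in 21.3% of all windows. No motif overlapped another in either window. These are letter matches in 250 bases and say nothing of sites elsewhere. The promoter table matched only these 2 of the 4 genes.

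All 4 Ly6 probes gave a brighter spot for treated than for control RNA on every array. Over the whole table, 16.5% of tested probes were called higher and 12.6% lower by limma. Below, the groups of a probe do not overlap if every treated spot is above every control spot. The share of all tested probes without such overlap was not counted. Because the Ly6 genes were chosen with this contrast known, nothing is read from their lack of overlap. Processed intensities are Feature Extraction's values after background subtraction and dye normalisation, and they are compared here within a probe only. Each probe was well above background in both channels on all 4 arrays, and 0 of their spots were saturated.

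The Ly6a (Sca-1) probe read 58929, 38143, 31141 and 28017 in IFN-γ cells of replicates 1 to 4, against 9687, 9351, 6242 and 9348 in control cells. The lowest treated spot was well above the highest control spot, so the groups did not overlap. The means were 39058 ± 13908 in IFN-γ cells and 8657 ± 1618 in control cells (SD, n = 4 each). Replicate 1 was the highest in both groups and stood apart from the other treated spots.

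The brighter Ly6c1 probe, called probe 1 here, read 156906, 107881, 100466 and 91909 in IFN-γ cells, against 32047, 37725, 20143 and 31447 in control cells. Its treated spots were all above its control spots, and replicate 1 was again the highest treated value. Ly6c1 probe 2 read 10814, 6138, 9096 and 6509 in IFN-γ cells, against 3732, 2969, 2545 and 3100 in control cells. Again the groups did not overlap, although this probe was dimmer. The means for probe 1 were 114291 ± 29150 in IFN-γ cells and 30340 ± 7363 in control cells, and those for probe 2 were 8139 ± 2216 in IFN-γ cells and 3086 ± 491 in control cells (SD, n = 4 each). The files used here hold no probe sequences, so whether either probe also binds transcripts of Ly6c2 or of other near-identical Ly6 genes was not tested.

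The Ly6e probe read 16246, 5968, 9697 and 7528 in IFN-γ cells, against 5219, 3318, 4087 and 4245 in control cells. The groups did not overlap, but the lowest treated spot, of replicate 2, stood close to the highest control spot, of replicate 1. The means were 9860 ± 4524 in IFN-γ cells and 4217 ± 781 in control cells (SD, n = 4 each).

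**Figure D1:**
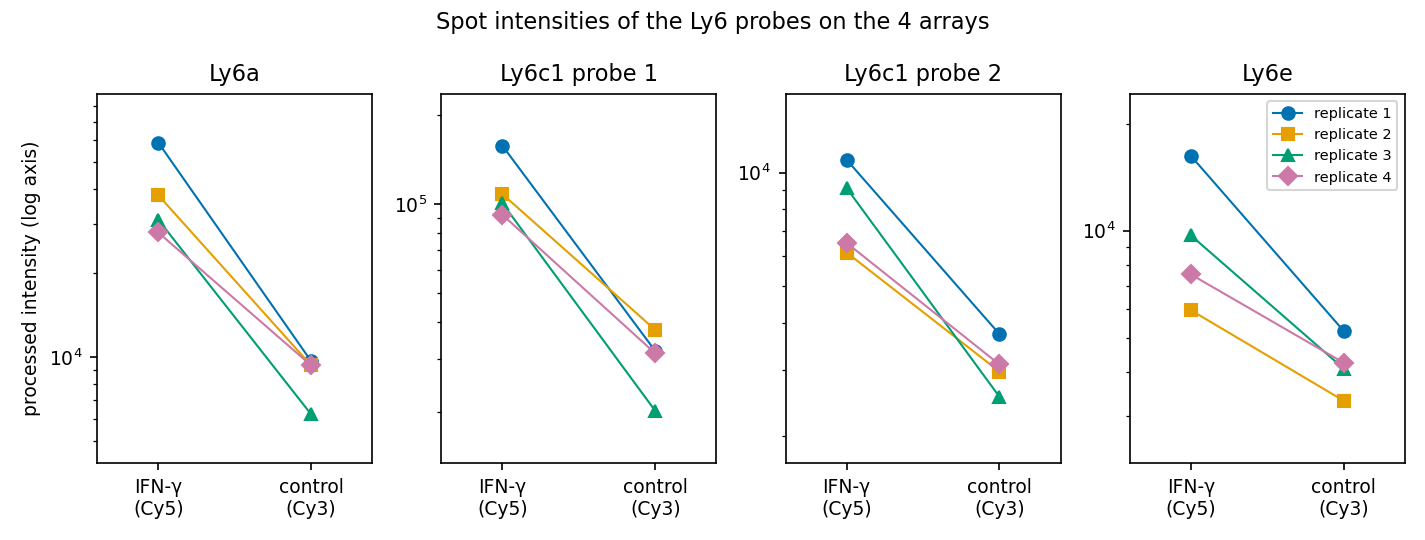
Processed spot intensity (vertical log axis, a separate range for each probe) in IFN-γ (Cy5, left) and control (Cy3, right) RNA for the 4 Ly6 probes. Each line joins the 2 channels of 1 array, and every line falls toward the control side.

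The log2 ratio of IFN-γ over control, after background correction and loess normalisation within each array, put the probes on a common scale. Ly6a had log2 ratios of 2.60, 2.03, 2.29 and 1.57 on replicates 1 to 4, with a mean of 2.12 ± 0.43 (SD, n = 4), which is 4.36-fold. Ly6c1 probe 1 had 2.27, 1.58, 2.35 and 1.52, with a mean of 1.93 ± 0.44 or 3.81-fold. Ly6c1 probe 2 had 1.56, 1.13, 1.83 and 1.11, with a mean of 1.41 ± 0.35 or 2.65-fold. The log2 ratio of each of these probes was above 0 on every array.

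Ly6e had log2 ratios of 1.61, 0.86, 1.28 and 0.84, with a mean of 1.15 ± 0.37 (SD, n = 4) or 2.21-fold. On replicates 2 and 4 Ly6e was under 2-fold, and these were the only values under 2-fold among the 16 values of the 4 probes. The mean of each of the 4 probes was at least 2-fold. Over the whole table limma called 418 of 28921 tested probes at least 2-fold higher (1.45%) and 1.12% at least 2-fold lower. Because the Ly6 genes were chosen with that contrast known, nothing is read from their count. Tested probes with a mean log2 ratio above that of Ly6a numbered 167 (0.577%), and those above Ly6e numbered 322 (1.11%).

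Replicates 1 and 3 gave a higher log2 ratio than replicates 2 and 4 for each of the 4 probes. The median log2 ratio of the 418 probes called at least 2-fold higher was likewise higher on replicates 1 and 3, at 1.94, 1.71, 1.82 and 1.68 on replicates 1 to 4.

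**Figure D2:**
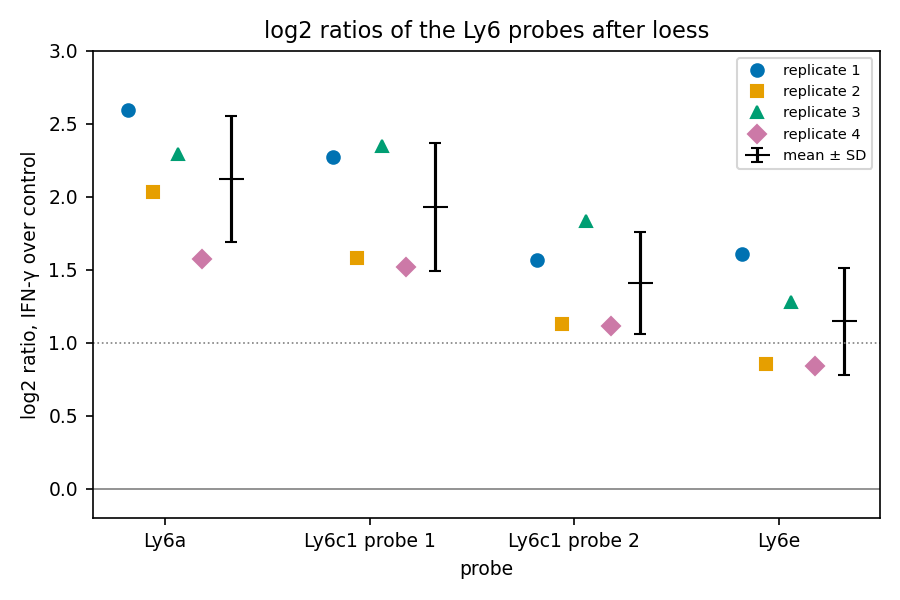
The log2 ratio of IFN-γ over control after loess (vertical axis) for the 4 Ly6 probes, with 1 symbol for each replicate array and the mean ± SD of 4 arrays beside them. All 16 values are above 0, and the dotted line marks a 2-fold change.

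Within arrays, the order of the log2 ratios was Ly6a, Ly6c1 probe 1, Ly6c1 probe 2 and Ly6e by mean. Ly6a exceeded Ly6c1 probe 1 by 0.19 ± 0.24 log2 units (SD, n = 4) and was the higher on 3 of 4 arrays, so these neighbours in the order did not differ beyond their spread. Ly6c1 probe 2 exceeded Ly6e by 0.26 ± 0.24 and was likewise higher on 3 of 4 arrays. The 2 Ly6c1 probes, although assigned to 1 gene, differed by 0.52 ± 0.13, with probe 1 higher on 4 of 4 arrays. Ly6a exceeded Ly6e by 0.98 ± 0.19 on 4 of 4 arrays.

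The size of these log2 ratios depended on the normalisation within arrays. Before loess the means were 4.20, 4.02, 3.47 and 3.21 for Ly6a, Ly6c1 probe 1, Ly6c1 probe 2 and Ly6e, and loess shifted them by −2.08, −2.09, −2.06 and −2.07. With each array centred on its median in place of loess, the means were 3.14, 2.97, 2.42 and 2.16, and the median of all tested probes was then 0.50. Relative to that median the probes stood 2.64, 2.46, 1.91 and 1.65 higher. The order of the 4 probes was the same in each case.

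**Figure D3:**
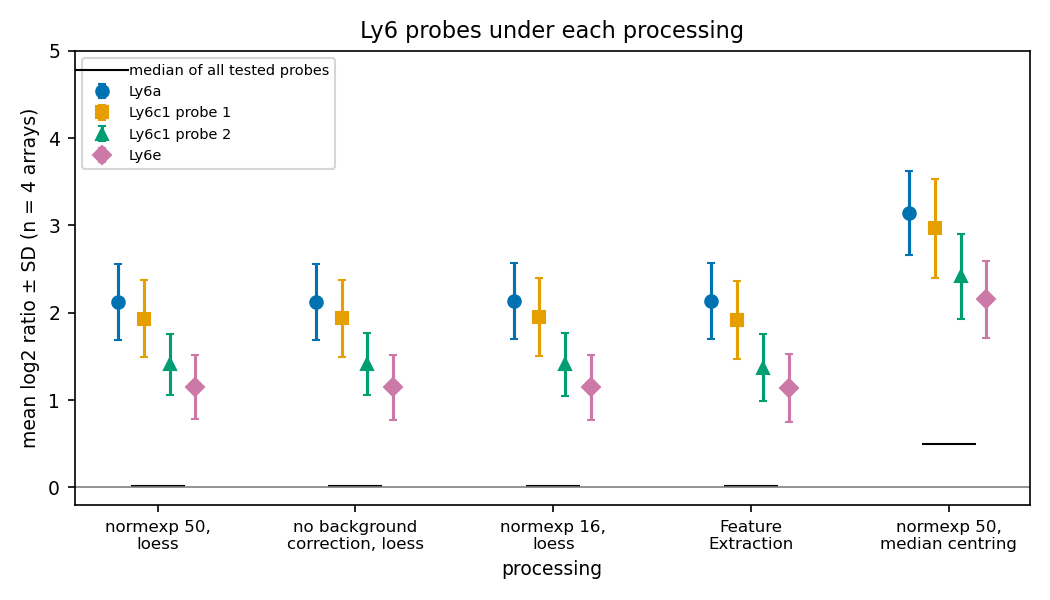
Mean log2 ratio of IFN-γ over control ± SD of 4 arrays (vertical axis) for the 4 Ly6 probes under 5 ways of processing the arrays, with the median of all tested probes as a short line. The first 4 ways differ little, and median centring gives larger values and a median of 0.50.

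Ly6a and Ly6c1 are immediate neighbours in the RefSeq gene order of chromosome 15. The other immediate neighbours of the 4 genes had no probe matched. They include Ly6a2, a protein-coding gene next to Ly6c2 that was not in the family list. Of 21 listed Ly6/uPAR genes on that chromosome, with the 4 chosen genes among them, 16 had a tested probe, namely Ly6a, Ly6c1, Ly6e and 13 others. Genes of the cluster did not move as a block. Ly6i, which lies between Ly6e and Ly6a among the family genes, had a mean log2 ratio of 0.06 ± 0.19, and Ly6m, on the other side of Ly6e, had −0.01 ± 0.10 (SD, n = 4 each). Under median centring these were 0.65 and −0.40, and both then passed.

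Ly6f, further along the cluster beyond Ly6c2, rose 2.87-fold. Its processed intensities were 4546, 2094, 2513 and 1926 in IFN-γ cells, against 1079, 875, 675 and 938 in control cells. The groups did not overlap, but the share of such probes was not counted, so nothing is read from that. Its log2 ratio was 1.52 ± 0.48 (SD, n = 4) with an adjusted p of 0.0040 by limma over all tested probes. Its values on replicates 1 to 4, at 2.02, 1.24, 1.83 and 1.00, were higher on replicates 1 and 3, as for the Ly6 probes above. Whether the Ly6f probe also binds transcripts of Ly6a or Ly6c1 was not tested.

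At the far ends of the cluster the values were near or below 0. Gpihbp1, the endothelial carrier of lipoprotein lipase, fell by 0.44 ± 0.03 on the log2 scale (SD, n = 4; adjusted p 0.0049 by limma), a direction that turned to 0.18 under median centring. Psca, the prostate stem cell antigen, had 0.19 ± 0.12 and did not pass.

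**Figure D4:**
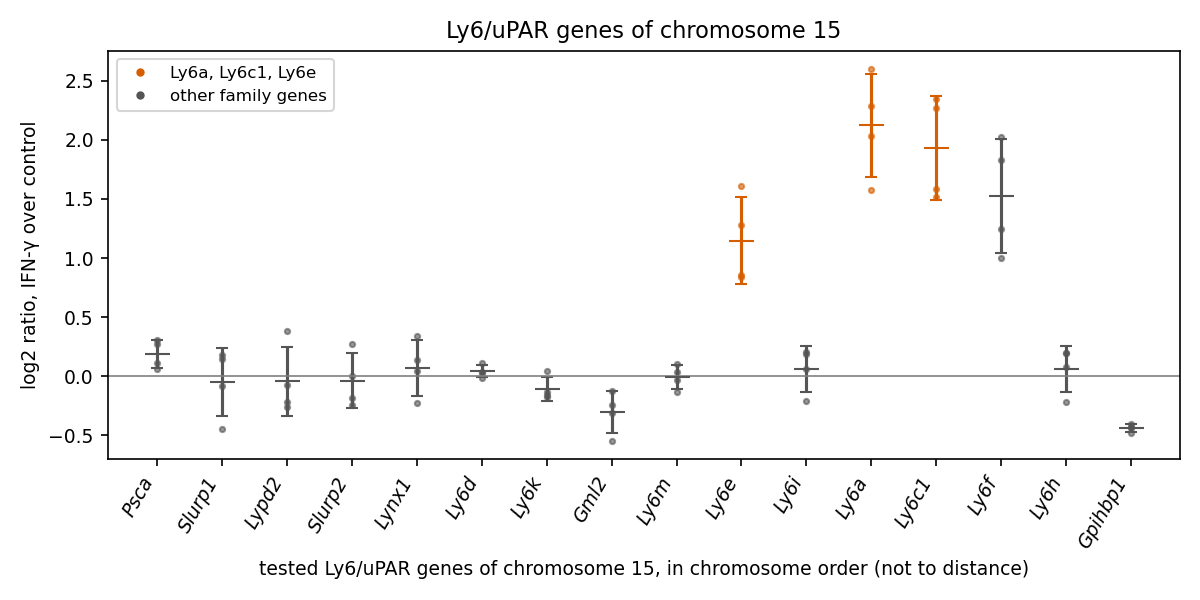
The log2 ratio of IFN-γ over control (vertical axis) for the 16 tested genes among the listed Ly6/uPAR genes of chromosome 15, in chromosome order without distances. Points are the 4 arrays and bars the mean ± SD. Ly6e, Ly6a, Ly6c1 and Ly6f lie above 0 on every array, as does Psca with smaller values (mean 0.19).

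Of the Ly6/uPAR family outside the 4 genes, 39 genes were listed, 35 had a probe and 25 were tested. Of these, 3 were higher, 4 were lower and 18 did not pass, with a median log2 ratio of 0.04. Over all 15673 tested genes the median was 0.03, with 18.8% higher and 12.9% lower. Plaur, the urokinase receptor, rose with a log2 ratio of 0.50 ± 0.35 (adjusted p 0.0421 by limma), but its value on replicate 2 was −0.00 and its call was lost with Feature Extraction ratios (adjusted p 0.0651). Without replicate 1, 3 or 4 its adjusted p was 0.144, 0.163 or 0.144. Lypd6b was called higher, but its control spots were not well above background on any array, so only a bound of at least 1.16-fold can be given (adjusted p 0.0333 by limma). Its Feature Extraction log2 ratio was 1.43. The call of Lypd6b was lost without replicate 1, 3 or 4 (adjusted p 0.106, 0.119 or 0.122), and its direction turned to −0.41 under median centring.

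The other 3 genes that fell were Spaca4, a sperm acrosome protein, at −0.33 ± 0.03, Gml2 at −0.30 ± 0.18 and Lypd5 at −0.24 ± 0.08 (SD, n = 4 each). Their adjusted p-values by limma were 0.0103, 0.0421 and 0.0330. Without replicate 1, 3 or 4 the adjusted p was 0.105, 0.079 or 0.141 for Gml2 and 0.121, 0.125 or 0.085 for Lypd5, and that of Spaca4 was 0.060 or 0.056 without replicate 3 or 4. Under median centring Spaca4 and Lypd5 turned to 0.29 and 0.46, and Gml2 had −0.22 (adjusted p 0.105). With Feature Extraction ratios Gml2 had −0.63. The cholinergic modulator Lynx1, the brightest family gene that did not pass, had 0.07 ± 0.24, and the complement inhibitor Cd59a had 0.08 ± 0.33, and under median centring both passed, at 1.07 and 0.95. The remaining tested genes, Slurp1, Slurp2, Lypd1, Lypd2, Lypd3, Lypd4, Lypd6, Ly6d, Ly6h, Ly6k, Ly6g5b, Ly6g6c and Tex101, had mean log2 ratios between −0.18 and 0.24 and did not pass after loess, although some passed in either direction under median centring. The control spots of Ly6d, Lypd1 and Lypd4 were not well above background on any array.

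The GPI anchor that holds Ly6 proteins is built in the endoplasmic reticulum by the Pig and Pgap enzymes. Of 32 listed genes of anchor synthesis and remodelling, 31 were tested, 5 were higher, 8 were lower and 18 did not pass, with a median log2 ratio of −0.14, beside 18.8% higher and 12.9% lower over all tested genes. Under median centring 22 were higher, 2 were lower and the median was 0.65. Dpm3, which tethers dolichol-phosphate mannose synthase, fell by 0.67 ± 0.33 on the log2 scale (adjusted p 0.0151 by limma). Pgap4, which adds a sugar side chain to the anchor, fell by 0.59 ± 0.11 (adjusted p 0.0037), and Gpaa1, a transamidase subunit, fell by 0.57 ± 0.24 (adjusted p 0.0115). Pigk, the catalytic subunit of the same transamidase, rose by 0.53 ± 0.20 (SD, n = 4 each; adjusted p 0.0104). Pign, which adds ethanolamine phosphate to the anchor, had −0.28 ± 0.34 and did not pass, but it passed at 0.73 under median centring (adjusted p 0.0013) and at −0.44 without replicate 2 (adjusted p 0.0071). The directions of Dpm3 and Gpaa1 turned to 0.33 and 0.0095 under median centring, and Pgap4 then had −0.02, against −0.89 with Feature Extraction ratios. Without replicate 3 the adjusted p was 0.072 for Dpm3, 0.057 for Gpaa1 and 0.053 for Pigk, and without replicate 4 it was 0.073 for Dpm3 and 0.056 for Pigk.

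Other proteins that carry a GPI anchor did not share 1 direction. Of 29 tested, 5 were higher, 7 were lower and 17 did not pass, with a median log2 ratio of 0.03, beside 18.8% higher and 12.9% lower over all tested genes, so the share higher was near that of all genes. Bst2 (tetherin), an interferon-induced protein that holds budding viruses at the cell surface, had the largest change of the list, a rise of 4.36 ± 0.17 (adjusted p 7.83e-06). Gfra1, a receptor of glial cell line-derived neurotrophic factor, rose by 0.79 ± 0.11 (adjusted p 0.0016 by limma). Its control spots were well above background on 2 arrays only, and its log2 ratio was 1.11 with a background offset of 16 and 1.90 with Feature Extraction ratios. Art1, a muscle ADP-ribosyltransferase, fell by 0.93 ± 0.41 (SD, n = 4 each; adjusted p 0.0097), but its adjusted p was 0.054 without replicate 3 and 0.419 under median centring. Folr1, a folate receptor, fell by 1.49 ± 0.33 on its brightest probe (adjusted p 0.0017), while its second probe had −0.16. The glypican Gpc1 had 0.10 ± 0.16 and did not pass, but had 1.14 under median centring (adjusted p 7.46e-05).

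Sca-1 is used with other surface markers to sort progenitors from muscle. Of 21 tested genes of that kind, 5 were higher, 1 was lower and 15 did not pass, with a median log2 ratio of 0.03. Over all tested genes 18.8% were higher and 12.9% lower. Of the 5, the integrin subunit Itgb1 had 0.39 on its brightest probe and −0.53 on its second, and averaging the probes of each gene gave 4 higher. Vcam1, an adhesion molecule of satellite cells and activated endothelium, rose by 1.42 ± 0.19 over the 3 arrays on which its brightest probe was measured (adjusted p 0.0018 by limma). Cxcr4, the receptor of the chemokine Cxcl12, rose by 0.83 ± 0.28 (adjusted p 0.0057). The platelet-derived growth factor receptors Pdgfra and Pdgfrb rose by 0.67 ± 0.17 (adjusted p 0.0042) and 0.65 ± 0.25 (adjusted p 0.0089). The call of Pdgfrb was lost without replicate 3 or 4 (adjusted p 0.052 or 0.054). The heparan sulphate proteoglycan Sdc4 fell by 0.46 ± 0.15 (SD, n = 4 each; adjusted p 0.0098), a call that was lost without replicate 3 or 4 (adjusted p 0.059 or 0.056) and a direction that turned to 0.38 under median centring. Itga7, the laminin receptor subunit of muscle, had −0.08 ± 0.06 and did not pass, but had 0.96 under median centring (adjusted p 7.36e-05).

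Of 16 tested genes of IFN-γ signalling and its early regulators, 9 were higher and 1 was lower, with a median log2 ratio of 1.33. Over all tested genes 18.8% were higher and 12.9% lower. Whether any of them acts on the Ly6 genes was not tested. Nlrc5, the transactivator of MHC class I genes, rose by 4.50 ± 0.19 on its brightest probe (0.71 on its second), and the transcription factor Batf2 by 4.35 ± 0.29. Irf1, an interferon regulatory factor, rose by 2.74 ± 0.20 on its brightest probe, while its second probe had 0.29. Irf9, another factor of that family, rose by 2.24 ± 0.11 (SD, n = 4 each; adjusted p by limma between 8.76e-06 and 3.29e-05 for Nlrc5, Batf2 and Irf9). The feedback inhibitor Socs3 had −0.13 ± 0.21 and did not pass. Under median centring Socs3 had 0.88 (adjusted p 9.92e-05) and without replicate 2 it had −0.23 (adjusted p 0.025).

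**Figure D5:**
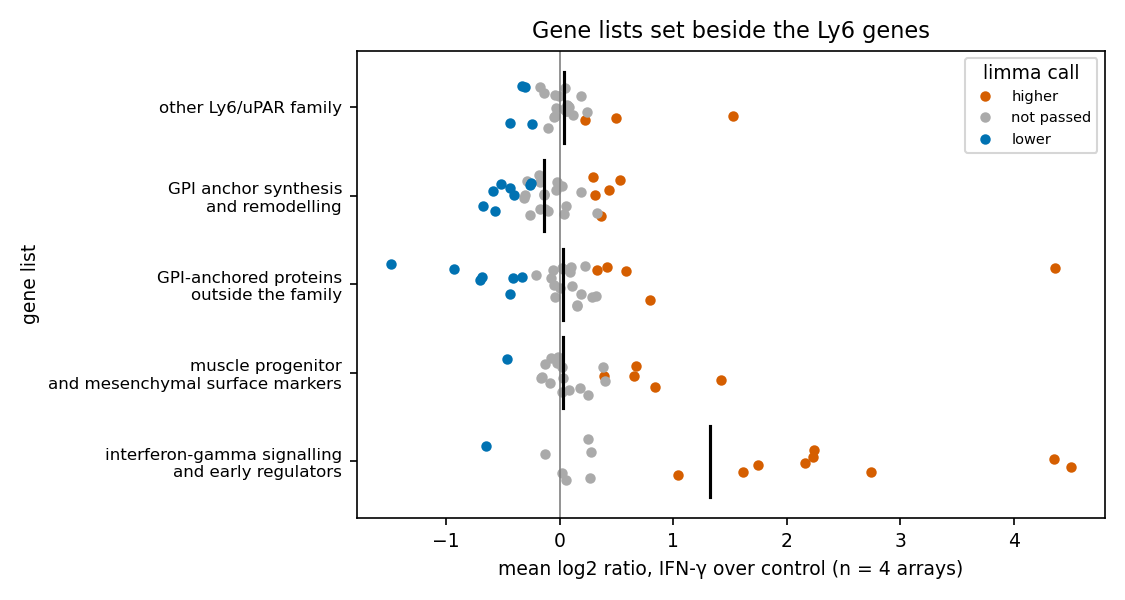
Mean log2 ratio of IFN-γ over control (horizontal axis) of each tested gene in 5 lists set beside the Ly6 genes, over 4 arrays (3 for Vcam1). Colours give the limma call and the black bar each list's median, which is 1.33 for signalling genes and between −0.14 and 0.04 for the other lists.

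By pattern over the 4 arrays, the probes nearest to each Ly6 probe were found by Euclidean distance of the log2 ratios among 20281 or 20282 other named probes. The nearest to Ly6a were Ogdh at 0.399, the chemokine Ccl7 at 0.439 and the complement inhibitor Serping1 at 0.505. The Ogdh probe had a mean of 2.07, but the brighter probes of that gene had −0.29 and −0.32, so the match holds for 1 probe. The nearest to Ly6c1 probe 1 were the tryptophanyl-tRNA synthetase Wars at 0.247, Herc6 at 0.297 and another probe of Serping1 at 0.352.

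The nearest to Ly6c1 probe 2 were the phospholipase Pla1a at 0.189, the collagen Col14a1 at 0.251 and Gm4788 at 0.330. The nearest to Ly6e were a dimmer probe of Vcam1 at 0.202, the cortisone reductase Hsd11b1 at 0.210 and a second Wars probe at 0.259. These distances rest on 4 arrays and describe likeness in size and array order only.

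Since Sca-1 and Ly6C mark several cell types, markers of each were read in the same RNA. All 8 myoblast and myotube markers were well above background. Of them 1 was higher, the myogenic regulator Myf5 at 0.60 ± 0.15, and 3 were lower, with desmin (Des) at −1.23 ± 0.26, muscle creatine kinase (Ckm) at −1.12 ± 0.73 and embryonic myosin (Myh3) at −0.62 ± 0.06 (SD, n = 4 each). Under median centring the direction of Myh3 turned to 0.43, and Des and Ckm had −0.21 and −0.15 and lost their calls. Ckm also lost its call by limma without replicate 1, 3 or 4 (adjusted p 0.065, 0.100 or 0.054). Myogenin (Myog), which drives terminal differentiation, had −0.01 ± 0.40 and did not pass, but had 1.02 under median centring. That setting gave 6 of the 8 higher and 0 lower, with the median turned to 0.75, against −0.28 after loess. It also called 16438 of all 28921 tested probes higher and 6357 lower. After loess 18.8% of all tested genes were higher and 12.9% lower. The summed processed intensity of the list lay between 171235 and 249604 in IFN-γ cells and between 242106 and 328112 in control cells.

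Of 8 tested fibroblast and fibro-adipogenic markers, 4 were higher and 1 was lower, beside 18.8% higher and 12.9% lower over all tested genes. Col3a1 had 1.15, Pdgfra 0.67, Col1a1 0.46 and Lum 0.34, against −1.39 for Pi16. Dcn, Dpt and Cd34 had 0.04, 0.14 and −0.17 and did not pass. Col3a1, Col1a1 and Pdgfra were highest on replicate 2, at 1.59, 0.87 and 0.84, where Lum was lowest at 0.04. Col1a1 lost its call by limma without replicate 1, 3 or 4 (adjusted p 0.057, 0.129 or 0.083), as did Lum (0.128, 0.165 or 0.158), which left 2 higher in each case. Their summed intensity lay between 154891 and 269656 in IFN-γ cells and between 91756 and 146535 in control cells. Their part in the Ly6 log2 ratios was not tested, and fewer cells of a type and less RNA per cell cannot be told apart in RNA of a whole culture.

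Among markers of blood and endothelial cells, 1 gene passed as higher after loess, beside 18.8% higher and 12.9% lower over all tested genes. Under median centring 3 macrophage and leukocyte, 3 lymphocyte, 1 endothelial and 1 neutrophil marker passed as higher. That setting called 16438 of all 28921 tested probes higher, so nothing is read from these counts. Of 5 tested macrophage and leukocyte markers 0 were higher and Csf1r was lower at −0.40. The pan-leukocyte gene Ptprc had 0.01 ± 0.10 and did not pass. Its processed spots were dim, at 17 to 23 in IFN-γ RNA and 8 to 23 in control RNA. They were well above background in IFN-γ RNA on 4 arrays and in control RNA on 1, as were those of the lymphocyte marker Cd8a, at −0.03. Not all of these markers were dim. Itgam read 42014 to 63777 in IFN-γ RNA and 51437 to 63098 in control RNA on its brightest probe. It had −0.14 ± 0.35 and did not pass, and its other probes had −0.23 and −0.11. Of 3 tested endothelial markers 0 were higher and Kdr was lower at −1.02, and Cdh5, Emcn and Erg were not well above background. Pecam1 had −0.19 ± 0.14 and did not pass. Of 3 tested neutrophil markers 0 were higher and Elane was lower at −0.74. Csf3r was bright, at 83290 to 126086 in IFN-γ RNA and 65507 to 132111 in control RNA. It had 0.08 ± 0.70 and did not pass. Of 7 tested lymphocyte markers Lck was higher at 0.35 and both Cd4 and Cd3e were lower, at −0.46 and −0.44. Cd79a, the brightest of that list that did not pass, had −0.11 ± 0.04. The directions of Csf1r, Elane, Cd4 and Cd3e turned to 0.50, 0.26, 0.53 and 0.33 under median centring, and Kdr then had −0.02. Other probes of Csf1r had −0.06 and 0.03, and the second probe of Cd4 had 0.05. Lck lost its call by limma without replicate 1, 3 or 4 (adjusted p 0.055, 0.076 or 0.066), Elane without replicate 3 or 4 (0.055 or 0.054) and Cd3e without replicate 3 (0.0500).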

How the data were processed

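The authors ran Agilent's extraction software, named in the submitters' processing notes as Agilent Feature Extraction with version 10.7.3.1. The deposited scanner files give, for both channels, a median and a processed intensity. They also give a deposited log10 ratio (red over green). The authors' deposited value table is in log2 units, since its slope on the scanner log10 ratios was 3.32 on all 4 arrays (r = 1.00 over 21736 probes), which sets its direction as Cy5 over Cy3. Its column medians were −0.109, −0.116, −0.125 and −0.105. Over those probes it is a rescaled copy of the scanner ratios and so has their centring.

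Median intensities were background-corrected with normexp (offset 50) and normalised by loess within arrays in limma 3.58.1 under R 4.3.3. Control spots got weight 0, spots flagged as outliers were dropped, and repeated spots were averaged per probe. A RefSeq gene table (GRCm38.p6) gave 1 symbol to 26055 of 39429 probes and none to 13374. A probe entered the test if 1 channel was well above background on 3 or more of 4 arrays, which kept 28921 probes for 15673 genes. Log2 ratios were tested against 0 with lmFit and eBayes, two-sided, with Benjamini-Hochberg adjustment over all tested probes at 0.05. The brightest tested probe stood for a gene, and genes not above background in control RNA got a bound from loess and Aquantile normalised values. The fit was tested on simulated data. All arrays lay on 1 slide with 1 scan.

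The 4 Ly6 genes and the gene lists were chosen with earlier results of these data known. Named genes were all tested genes of the Ly6/uPAR list, up to 4 called genes of each list with the largest change, the brightest that did not pass, and the 3 nearest probes to each Ly6 probe. Genes named in addition, including the markers not above background, were chosen after their values were seen.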

Additional observations from a re-analysis of the deposited data

Results flagged for a closer look

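No Ly6a, Ly6c1 or Ly6e probe had an array far from the others. Of 67 probes and genes examined over 4 arrays, 5 had 1 array whose gap to the nearest of the others, as a share of the whole range, passed Dixon's 95% critical value, and chance alone marks about 5% of such groups. The GPI transamidase subunit Gpaa1 had −0.9252 on replicate 2, against −0.493 to −0.420 on the other arrays. Gfra1 had 0.9518 on replicate 1, against 0.727 to 0.743. Nlrc5 had 4.789 on replicate 1, against 4.39 to 4.41. Socs3 had 0.1856 on replicate 2, against −0.267 to −0.201. Lypd3 had −0.121 on replicate 4, against −0.015 to −0.0076.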

How the results depend on the processing

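Without background correction, with an offset of 16 and with Feature Extraction ratios, the 4 Ly6 probes moved by less than their SD. The authors' value table holds the same ratios as Feature Extraction for these probes and is no separate check. Leaving out each array in turn gave 1.97 to 2.31 for Ly6a, 1.79 to 2.07 and 1.27 to 1.51 for Ly6c1 probes 1 and 2, and 0.99 to 1.25 for Ly6e. Median centring in place of loess gave 3.14, 2.97, 2.42 and 2.16 and called 16438 probes higher and 6357 lower, against 4778 and 3633. Leaving out 1 array gave 1913 to 6331 higher and 1151 to 5546 lower. Under median centring, counts higher and lower and the median log2 ratio were 11, 9 and 0.18 for other Ly6/uPAR genes, 22, 2 and 0.65 for anchor synthesis, 18, 2 and 0.99 for progenitor markers and 15, 0 and 1.71 for signalling, and GPI-anchored proteins had 19 higher and a median of 0.55. Leaving out 1 array gave, in the same order of quantities, 1 to 4, 1 to 5 and −0.00018 to 0.030 for other Ly6/uPAR genes, 1 to 5 and 3 to 9 for anchor synthesis, 2 to 8, 2 to 8 and 0.019 to 0.069 for GPI-anchored proteins, 3 to 7, 0 to 1 and 0.0063 to 0.091 for progenitor markers, and 0 to 2 lower for signalling. Averaging all tested probes of each gene gave a Ly6/uPAR median of −0.0061. Of 68 named genes, median centring turned the direction of 26, took the call from 6 that kept their direction and gave a call in the same direction to 12. Some of the 26 lost their call as well, such as Gpihbp1, Dpm3 and Gpaa1 (adjusted p 0.115, 0.074 and 0.951 by limma). Directions turned for Gpihbp1 (0.18), Spaca4 (0.29), Dpm3 (0.33), Gpaa1 (0.0095), Csf1r (0.50), Cd4 (0.53), Cd3e (0.33), Elane (0.26), Myh3 (0.43), Lypd5 (0.46), Lypd6b (−0.41) and Sdc4 (0.38). They also turned for genes that had not passed and then did, namely Pign (0.73), Itga7 (0.96), Socs3 (0.88), Itgam (0.90), Pecam1 (0.36), Myog (1.02), Ly6d (−0.46), Ly6g5b (−0.25), Ly6g6c (0.62), Lypd1 (−0.59), Lypd2 (0.58), Lypd4 (−0.57), Slurp2 (0.92) and Ptprc (−0.46), and the cause was not tested. The methods' unpaired t-test on channel values, with the 2-fold limit, gave 411 higher and 241 lower after Benjamini-Hochberg adjustment, against 418 and 323 by limma. Each array sets 1 treated sample against 1 control. The limma test of the log2 ratios against 0 thus compared the 2 channels within each array. Signal over background limits genes such as Lypd6b, whose control spots were not above it.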
